A study of Mus musculus with 12 samples.

Results

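The transcriptional response of bone marrow macrophages to a fibronectin coating was compared between cells given IgG and cells given an ITGA5 neutralizing antibody. For each gene, the difference fibronectin minus uncoated among the IgG libraries was subtracted from the same difference among the anti-ITGA5 libraries, on the log2 scale. Of 54532 genes in the count table, 13611 had at least 10 counts in 3 or more libraries and were tested. A negative value of this difference means that the coating raised a gene less, or lowered it more, when ITGA5 was neutralized.

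Macrophages were grown with CSF-1 from bone marrow (tibial in the sample labels, femoral and tibial in the methods of the study) of wild-type C57BL/6J mice aged 2 to 3 months, passaged once onto fibronectin-coated or plain culture plates, and exposed to antibody at 10 µg/ml for 24 h. The 4 groups were IgG on uncoated plates, IgG on fibronectin, anti-ITGA5 on uncoated plates and anti-ITGA5 on fibronectin, with 3 libraries each. No gene was deleted and no transgene was present in any group, and all cells were kept in medium with fetal calf serum, which itself contains fibronectin. The study describes the replicates of a group as independent experiments. The labels do not tie libraries to animals or cultures, and p-values measure the spread between these libraries.

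Integrin α5 pairs with integrin β1 to form α5β1, the classical fibronectin receptor, which binds the Arg-Gly-Asp motif of fibronectin and signals through focal adhesion kinase, Src family kinases, PI3K and MAPK. Macrophages carry other integrins that can bind fibronectin, among them αvβ3, αvβ5 and α4β1. An antibody to ITGA5 can therefore be given both with and without added ligand, and the question put to these data was whether the response to the ligand differs when this receptor is neutralized.

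Total counts on genes ranged from 12954342 to 22075432 per library. Macrophage markers, 20 of 20 of which were tested, summed to between 9070 and 13600 FPKM (fragments scaled by gene length and by sequencing depth) in every library. Markers of neutrophils and their progenitors, 4 of 12 tested, summed to 13.4 to 40.0 FPKM, with Ly6g and Retnlg at 0. Their sum was highest in IgG on fibronectin, at 28.9 to 40.0 FPKM. Most of it was Mmp8, a matrix protease gene, at 31.2, 25.7 and 35.3 FPKM there and 24.0, 18.0 and 22.5 FPKM in IgG uncoated. Lymphocyte markers summed to 3.42 to 7.06 FPKM, dendritic cell markers to 1.83 to 3.12 FPKM and stromal markers to 1.06 to 2.42 FPKM. Mast cell, basophil and eosinophil markers reached at most 0.522 FPKM. Osteoclast markers, with Calcr at 0, summed to 25.1 to 27.2 FPKM without and 28.1 to 32.2 FPKM with fibronectin in IgG, and to 18.1 to 20.1 and 20.5 to 24.1 FPKM in anti-ITGA5. The 7 tested osteoclast markers, which include Mmp9, had median coating effects of 0.327 in IgG and 0.0845 in anti-ITGA5. Their median difference was -0.140, or -0.261 without anti-ITGA5 fibronectin replicate 3, and none was called. Erythroid and megakaryocyte markers summed to 362 to 699 FPKM, with 4 of 12 members tested. Their part in the results was not tested.

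Some libraries stood apart. Anti-ITGA5 uncoated replicate 2 had the lowest total and 1.02% of its counts on lincRNA, against 0.464% to 0.593% in the other libraries. Anti-ITGA5 uncoated replicate 3 had 0.438% of its counts on rRNA, against at most 0.0681% elsewhere. Pairs within this group differed by a chi-square per gene of 11.4 to 25.6, and pairs within the other groups by 2.79 to 8.13. Pgc, Gkn1 and Gkn2, which encode proteins of the gastric lining, had 39 to 173 counts in 10 libraries and 0 to 4 counts in anti-ITGA5 uncoated replicates 1 and 2. Anti-ITGA5 fibronectin replicate 3 stood apart in interferon response genes, as described with those genes. Calls that were lost without these libraries are named with the gene.

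The difference of the coating effects passed an adjusted p-value of 0.05 in 3 of 13611 genes, 0.022% (quasi-likelihood test of edgeR on all 12 libraries, p adjusted by Benjamini-Hochberg). All 3 were lower: Lpl, which encodes lipoprotein lipase, Mmp12, which encodes macrophage elastase, and the pseudogene Gm18194. At an unadjusted p of 0.05 or less there were 395 genes, 2.9% of those tested, of which 172 were higher (1.26%) and 223 lower (1.64%). DESeq2 called 4 genes, the same 3 and Dusp6. The coating itself moved few genes: 10 rose (0.0735%) and 1 fell (0.00735%) in IgG, and 1 rose (0.00735%) and 1 fell (0.00735%) in anti-ITGA5. The antibody moved many more, 3278 genes on uncoated plates (24.1%) and 3263 on fibronectin (24%). The median over all genes tested was -0.00733 for the difference, 0.00128 for the coating effect in IgG and -0.0015 for the coating effect in anti-ITGA5, all on the log2 scale.

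Lpl (ENSMUSG00000015568, chromosome 8 of GRCm38, 68880491 to 68907448, overlapping no other annotated gene) encodes the secreted enzyme that hydrolyses triglycerides of lipoproteins. Without fibronectin its level in IgG was 84.1, 86.3 and 84.2 FPKM, and with fibronectin 133, 141 and 142 FPKM. In anti-ITGA5 it was 97.6, 95.9 and 99.3 FPKM without and 96.3, 101 and 110 FPKM with fibronectin. The IgG libraries thus separated by coating, while the anti-ITGA5 libraries overlapped and lay between the IgG groups. The coating effect in IgG was 0.71 on the log2 scale (SE 0.0496, adjusted p = 4.3e-06), from 84.8 ± 1.24 to 139 ± 4.79 FPKM (SD, n = 3 libraries each; edgeR). In anti-ITGA5 it was 0.06 (95% interval -0.05 to 0.16, adjusted p = 0.851), from 97.6 ± 1.73 to 102 ± 7.06 FPKM (SD, n = 3 libraries each; edgeR). The difference was -0.65 (95% interval -0.80 to -0.50, adjusted p = 0.00157). Read the other way, Lpl rose with ITGA5 neutralization on uncoated plates, by 0.21, and fell by 0.44 on fibronectin (adjusted p = 0.00621 and 1.27e-05). The Lpl difference was called in every alternative but the one that asked for a log2 value of at least 1, and ranged from -0.71 to -0.60 among them.

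Mmp12 (ENSMUSG00000049723, chromosome 9, 7344381 to 7369499) encodes a metalloprotease that cleaves elastin and other matrix proteins. Its annotated span overlaps that of Mmp1b, and the counting strand is not named in the sources used here. Mmp12 stood at 45.9, 48.7 and 49.0 FPKM in IgG without and at 69.2, 73.5 and 75.6 FPKM with fibronectin. In anti-ITGA5 it stood at 71.2, 70.2 and 68.2 FPKM without and at 64.2, 75.3 and 65.3 FPKM with fibronectin. Only the IgG uncoated libraries were low, and the other 3 groups overlapped. The coating effect was 0.60 in IgG (SE 0.0592, adjusted p = 0.000234) and -0.05 in anti-ITGA5 (95% interval -0.17 to 0.08, adjusted p = 0.905). The difference was -0.65 (95% interval -0.82 to -0.47, adjusted p = 0.00767). The antibody effect on Mmp12 was 0.55 on uncoated plates (adjusted p = 9.34e-06) and -0.09 on fibronectin (adjusted p = 0.274). Leaving out IgG uncoated replicate 1 took the difference to an adjusted p of 0.0604, and limma on FPKM took it to at most 0.0753.

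Gm18194 (ENSMUSG00000109724, chromosome 7, 12795723 to 12799164) is a transcribed processed pseudogene whose span overlaps Zscan18 and Gm45315. A processed pseudogene can share reads with the gene it was copied from, so its counts are uncertain. It had 8, 5 and 11 counts in IgG uncoated, 36, 11 and 44 in IgG on fibronectin, 97, 200 and 324 in anti-ITGA5 uncoated and 3, 11 and 17 in anti-ITGA5 on fibronectin. The anti-ITGA5 uncoated libraries alone were high, from 97 to 324 counts. The difference was -6.15 (SE 0.870, adjusted p = 0.0157), and the coating effect in anti-ITGA5 was -4.38 (adjusted p = 0.0087). The call was lost when any 1 of 7 libraries was left out, with an adjusted p of up to 0.136, and in the 3 limma fits on FPKM (0.262, 0.368 and 0.511). The coating effect of Gm18194 in anti-ITGA5 had an adjusted p of 0.0798 without anti-ITGA5 fibronectin replicate 1, of 0.0704 without replicate 2 and of 0.125 on the 6 anti-ITGA5 libraries alone. Without anti-ITGA5 uncoated replicates 2 and 3, which leaves 1 library in that group, this coating effect was -3.26 (adjusted p = 0.143).

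**Figure D1:**
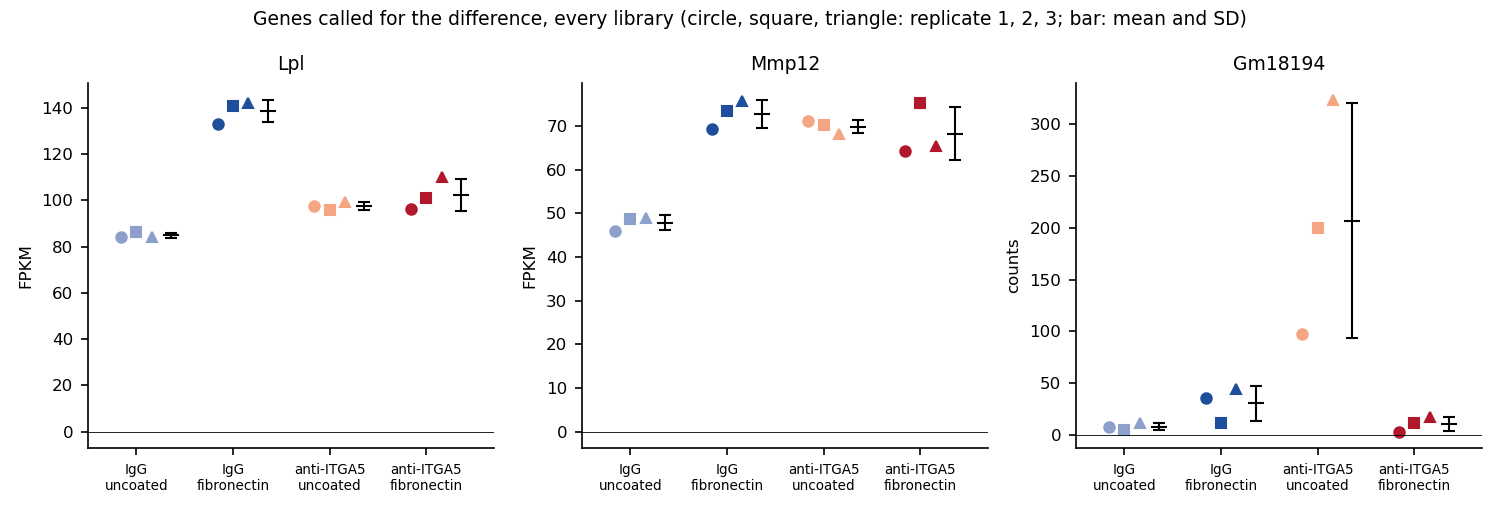
Level of the 3 genes called for the difference of the coating effects in every library, as FPKM for Lpl and Mmp12 and as counts for Gm18194, by group on the horizontal axis. Points are libraries and bars are the mean and SD of 3. Lpl was highest in IgG on fibronectin, at 133 to 142 FPKM, and Mmp12 was lowest in IgG uncoated, at 45.9 to 49.0 FPKM.

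The next genes by p did not pass the adjustment, and are given with the 95% interval of their difference. Dusp6, a phosphatase that inactivates ERK, was 77.3, 72.2 and 72.1 FPKM in IgG without and 67.7, 64.7 and 64.0 FPKM with fibronectin. In anti-ITGA5 it was 49.7, 45.9 and 52.2 FPKM without and 55.8, 56.5 and 61.7 FPKM with fibronectin. The groups did not overlap in either antibody, in opposite directions, and the difference was 0.40 (95% interval 0.24 to 0.56, adjusted p = 0.341). DESeq2 called Dusp6.

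Dusp1, a phosphatase of p38 and JNK, had the opposite pattern. It was 10.1, 11.3 and 11.6 FPKM in IgG without and 11.9, 13.2 and 13.4 FPKM with fibronectin, against 10.9, 11.1 and 12.8 FPKM and 9.74, 10.3 and 9.37 FPKM in anti-ITGA5. Here too the groups did not overlap by coating in either antibody. The difference was -0.48 (95% interval -0.71 to -0.24, adjusted p rounded to 1). Egr1, an immediate early transcription factor, had a difference of -0.91 (95% interval -1.48 to -0.35) at 47 to 113 counts per library. Pik3cg, the catalytic subunit of PI3Kγ, had a difference of 0.23 (0.10 to 0.36).

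Itga8, the α subunit of another fibronectin-binding integrin, was 2.31, 2.35 and 2.23 FPKM in IgG without and 1.76, 1.68 and 1.73 FPKM with fibronectin. In anti-ITGA5 its level was 1.83, 1.71 and 1.68 FPKM without and 2.01, 1.91 and 1.55 FPKM with fibronectin. The high group was IgG uncoated, and the difference was 0.48 (95% interval 0.20 to 0.75). Itga8 overlaps 2 other annotated genes. Of the remaining genes that filled the list to 20, 4 had a positive difference, E2f3 0.28, Igfbp4 0.30, Pabpc1 0.22 and Smyd5 0.29. The other 8 had a negative one, from -0.87 in Rgl3 to -0.38 in Tmem134. E2f3 encodes a cell cycle transcription factor, Igfbp4 a binding protein of insulin-like growth factors and Pabpc1 the cytoplasmic poly(A)-binding protein. None of these was called, and the adjusted p was 0.817 for Tmem134 and rounded to 1 for the others.

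**Figure D2:**
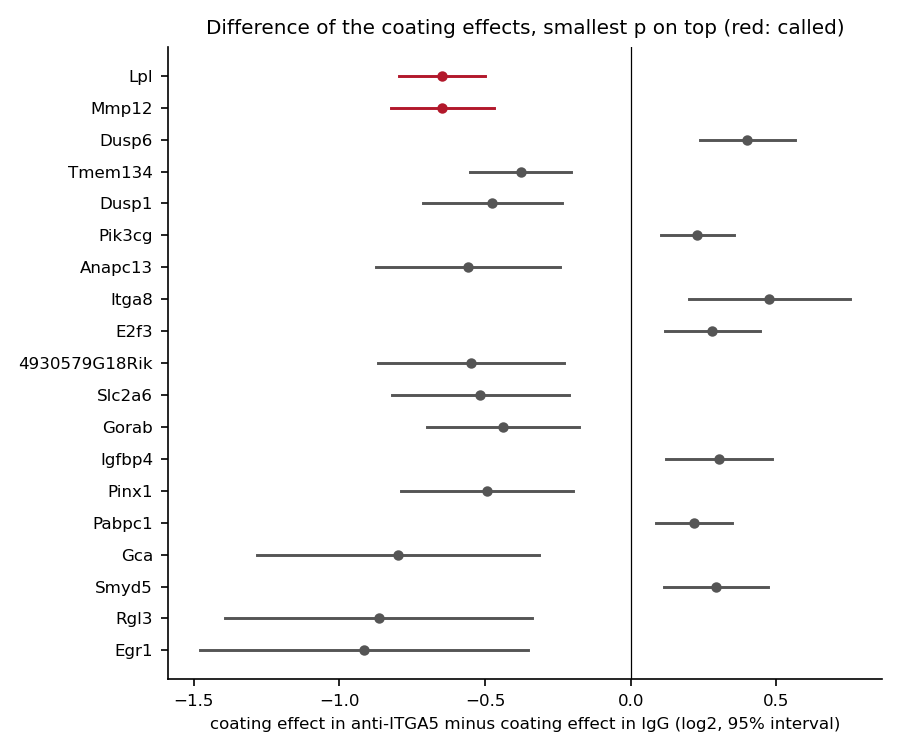
Coating effect in anti-ITGA5 minus coating effect in IgG on the log2 scale (horizontal axis) for the genes of smallest p, ordered by p, with points at the estimate and lines for the 95% interval. Gm18194 is left out for scale. Lpl and Mmp12, drawn in red, were called, at -0.65 each.

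The genes that the coating moved in IgG, Lpl and Mmp12 among them, were compared in the anti-ITGA5 libraries. The levels in those libraries do not enter the IgG effect, but all 12 libraries set the dispersion and normalization behind the p-values that chose the genes. Of the 11 genes called in IgG, 10 had the same sign of the coating effect in anti-ITGA5, all 11 had a smaller effect there, and 8 had an unadjusted p of 0.05 or less. That count stands beside 2.89% higher and 4.06% lower over all genes tested. Their median effect, signed by the direction in IgG, was 0.631 in IgG and 0.460 in anti-ITGA5. The comparison was also made in reverse. For the 44 genes with an unadjusted p of 0.001 or less in IgG, the signed median was 0.393 in IgG and 0.139 in anti-ITGA5, with 36 of the same sign. For the 30 genes chosen by the same rule in anti-ITGA5, it was 0.577 there and 0.319 in IgG, with 25 of the same sign. In both directions the median effect was smaller under the antibody that was not used for the choice.

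The genes that rose with the coating in IgG included 4 MHC class II genes, H2-Aa, H2-Ab1, H2-Eb1 and Cd74, none of which was called in anti-ITGA5. MHC class II molecules present peptides to CD4+ T cells, and their α and β chains are made with the invariant chain Cd74. H2-Aa (chromosome 17, 34282744 to 34287827) was 0.926, 0.905 and 0.944 FPKM in IgG without and 2.75, 2.70 and 2.91 FPKM with fibronectin. In anti-ITGA5 it was 0.973, 1.78 and 1.20 FPKM without and 1.95, 3.01 and 2.97 FPKM with fibronectin. The groups did not overlap in either antibody. The coating effect was 1.58 in IgG (SE 0.227, adjusted p = 0.0139) and 1.01 in anti-ITGA5 (95% interval 0.54 to 1.48, adjusted p = 0.305). DESeq2 called the effect in anti-ITGA5 for H2-Aa, H2-Eb1 and Cd74 (adjusted p = 0.0491, 0.00581 and 0.000175).

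H2-Eb1 (chromosome 17, 34305877 to 34316199) was 1.37, 2.20 and 2.02 FPKM in IgG without and 5.14, 3.84 and 4.87 FPKM with fibronectin, and 1.49, 2.15 and 1.73 FPKM against 3.83, 3.86 and 3.98 FPKM in anti-ITGA5. The 4 groups fell into a low uncoated pair and a high fibronectin pair. Its coating effect was 1.30 in IgG (adjusted p = 0.0219) and 1.12 in anti-ITGA5 (95% interval 0.69 to 1.55, adjusted p = 0.111). H2-Ab1 (chromosome 17, 34263209 to 34269418) rose by 0.86 in IgG (adjusted p = 0.0253) and had an effect of 0.55 in anti-ITGA5 (95% interval 0.25 to 0.85). Cd74 (chromosome 18, 60803848 to 60812646) rose by 1.17 in IgG (adjusted p = 0.000715), from 6.10 ± 1.19 to 13.7 ± 1.38 FPKM (SD, n = 3 libraries each; edgeR). Its effect in anti-ITGA5 was 0.78 (95% interval 0.50 to 1.05, adjusted p = 0.0893), from 6.84 ± 0.549 to 11.8 ± 1.24 FPKM (SD, n = 3 libraries each; edgeR). For Cd74 the difference was -0.39 (unadjusted p = 0.0497, adjusted p rounded to 1), and for H2-Aa, H2-Ab1 and H2-Eb1 it was -0.57, -0.31 and -0.18. These differences contain the contrast that chose the genes, and the intervals of the 3 chain genes included 0. Dendritic cell markers summed to 1.83 to 2.84 and 1.94 to 3.12 FPKM in IgG and to 2.22 to 3.08 and 1.84 to 2.40 FPKM in anti-ITGA5, without and with fibronectin, and their part in this result was not tested.

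Over the 8 tested MHC class II presentation genes, the median coating effect was 0.616 in IgG and 0.661 in anti-ITGA5, with 4 and 0 called higher, beside 0.0735% and 0.00735% of all genes. At an unadjusted p of 0.05 or less 5 and 6 were higher, beside 3.51% and 2.89% of all genes. H2-DMa and H2-DMb1, which load peptide onto class II molecules, and Ctss, the protease that trims the invariant chain, lay between 6.56 and 7.82, 15.1 and 21.4, and 593 and 1080 FPKM. Ciita, the master transcription factor of the class II genes, was at 0.0179 to 0.0825 FPKM. The 3 chain genes were low, at 28 to 147 counts per library, and in bulk RNA more cells with these transcripts and more RNA per cell cannot be told apart. Calls on H2-Aa, H2-Ab1 and H2-Eb1 in IgG were lost in 5, 5 and 4 of the 12 fits that left out 1 library.

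The 250 bases before the RefSeq transcription start of H2-Aa and H2-Eb1 are shown, since these neighbouring genes moved together, with capitals marking the Y box core ATTGG or its reverse complement CCAAT. They were read from GRCm38.p6 at chr17:34287824-34288073 on the minus strand and chr17:34305617-34305866 on the plus strand. The 2 Mmp12 windows, chr9:7344147-7344396 and chr9:7347124-7347373 on the plus strand, are shown for the 2 annotated starts of this called gene. Capitals there mark the AP-1 site TGANTCA, which is its own reverse complement.
H2-Aa: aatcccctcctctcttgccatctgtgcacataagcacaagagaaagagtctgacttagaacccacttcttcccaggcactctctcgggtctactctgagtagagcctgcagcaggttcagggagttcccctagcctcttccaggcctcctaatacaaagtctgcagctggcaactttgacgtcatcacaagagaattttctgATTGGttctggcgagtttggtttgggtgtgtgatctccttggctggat
H2-Eb1: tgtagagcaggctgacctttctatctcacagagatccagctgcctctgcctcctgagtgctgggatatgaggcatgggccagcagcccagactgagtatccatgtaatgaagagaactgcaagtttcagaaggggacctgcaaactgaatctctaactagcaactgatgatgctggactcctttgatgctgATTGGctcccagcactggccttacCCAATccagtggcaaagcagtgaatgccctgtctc
Mmp12, first start: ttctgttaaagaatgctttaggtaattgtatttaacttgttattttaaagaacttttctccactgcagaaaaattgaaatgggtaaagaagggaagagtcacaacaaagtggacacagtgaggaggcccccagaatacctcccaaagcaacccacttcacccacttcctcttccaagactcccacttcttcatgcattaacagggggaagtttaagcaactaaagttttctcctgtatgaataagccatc
Mmp12, second start: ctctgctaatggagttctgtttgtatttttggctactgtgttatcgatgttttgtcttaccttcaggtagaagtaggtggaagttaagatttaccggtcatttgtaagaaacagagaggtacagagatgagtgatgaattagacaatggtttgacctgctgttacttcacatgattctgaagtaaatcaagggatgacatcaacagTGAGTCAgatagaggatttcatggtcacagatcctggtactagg
The Y box core was found once before H2-Aa, 43 bases from the start, and 2 times before H2-Eb1, 30 and 54 bases from the start. It is present in 33.8% of 32851 windows of this length. The AP-1 letters were found once, 37 bases from the second Mmp12 start, and are present in 6.75% of the windows. They were absent from the window of the first start. A match of letters is a description of the sequence and not a site of binding.

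The remaining genes called in IgG were Fabp4, Gpnmb, Col18a1, Npy and Fcrls. Of the 12 fits that left out 1 library, the call in IgG was lost in 6 for Fabp4, 10 for Gpnmb, 4 for Col18a1, 6 for Npy and 9 for Fcrls, with the highest adjusted p, 0.364, for Fabp4 without IgG uncoated replicate 1. Without anti-ITGA5 uncoated replicate 3, Gpnmb and Fcrls had adjusted p-values of 0.135 and 0.056. Without replicate 1 of that group, Gpnmb, Fabp4 and Fcrls had 0.0855, 0.0684 and 0.0855. The calls on Gpnmb and Fcrls were also lost with DESeq2 size factors (adjusted p = 0.0541 for each), those on Gpnmb and Fabp4 when libraries were scaled by total counts (0.0775 and 0.0728), those on all but Npy after thinning to the smallest library (0.0538 to 0.0992), and all 5 with limma on FPKM (0.145 or more). Fabp4, a fatty acid carrier of macrophages and fat cells, was 6.92, 7.99 and 6.99 FPKM without and 10.3, 10.2 and 9.38 FPKM with fibronectin. In anti-ITGA5 it was 5.24, 5.18 and 5.52 FPKM and 5.31, 6.33 and 5.94 FPKM. Fabp4 separated by coating in IgG and overlapped in anti-ITGA5, with effects of 0.45 (adjusted p = 0.0371) and 0.13 (95% interval -0.04 to 0.30). Gpnmb, a glycoprotein of lysosomes and the cell surface, was the most abundant of these genes, at 1730 ± 35.3 and 2000 ± 81.3 FPKM in IgG and 1420 ± 38.6 and 1570 ± 44.3 FPKM in anti-ITGA5 (SD, n = 3). Its coating effects were 0.21 (adjusted p = 0.0472) and 0.14 (95% interval 0.06 to 0.21). The edgeR call in IgG was also lost when 10 counts were asked for in every library (adjusted p = 0.0799).

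Col18a1, whose span overlaps 2 other annotated genes, encodes the collagen that yields endostatin. It was 4.20, 4.04 and 4.80 FPKM in IgG without and 6.45, 6.46 and 7.34 FPKM with fibronectin, and 3.66, 2.63 and 3.16 FPKM against 4.69, 4.38 and 5.08 FPKM in anti-ITGA5. The groups separated by coating in both antibodies, with effects of 0.63 (adjusted p = 0.0231) and 0.56 (95% interval 0.34 to 0.78, adjusted p = 0.111). Npy, the neuropeptide Y gene, gave 0.53 (adjusted p = 0.0253) and 0.46 (95% interval 0.27 to 0.65, adjusted p = 0.146). DESeq2 called both Col18a1 and Npy in anti-ITGA5 (adjusted p = 0.000452 and 0.00286). Fcrls, an Fc receptor-like gene of mouse macrophages and microglia, fell by 0.51 in IgG (adjusted p = 0.0472) and was -0.36 in anti-ITGA5 (-0.55 to -0.18). Marcksl1, an actin-binding MARCKS family gene, was the 1 gene that rose in anti-ITGA5, by 0.46 (adjusted p = 0.00977), from 36.6 ± 2.65 to 50.7 ± 3.02 FPKM (SD, n = 3 libraries each; edgeR). The call on Marcksl1 was lost without anti-ITGA5 fibronectin replicate 1 or 2 (adjusted p = 0.0798 and 0.0704), on the 6 anti-ITGA5 libraries alone (0.234) and with limma on FPKM (0.0707 to 0.135). Without anti-ITGA5 uncoated replicates 2 and 3, its effect was 0.37 (adjusted p = 0.283). In IgG its effect was 0.29 (95% interval 0.17 to 0.42, adjusted p = 0.14), and its libraries did not overlap by coating there either. In IgG the rise of Marcksl1 was called by DESeq2 (adjusted p = 0.00981) and on the 6 IgG libraries alone (0.0167).

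**Figure D3:**
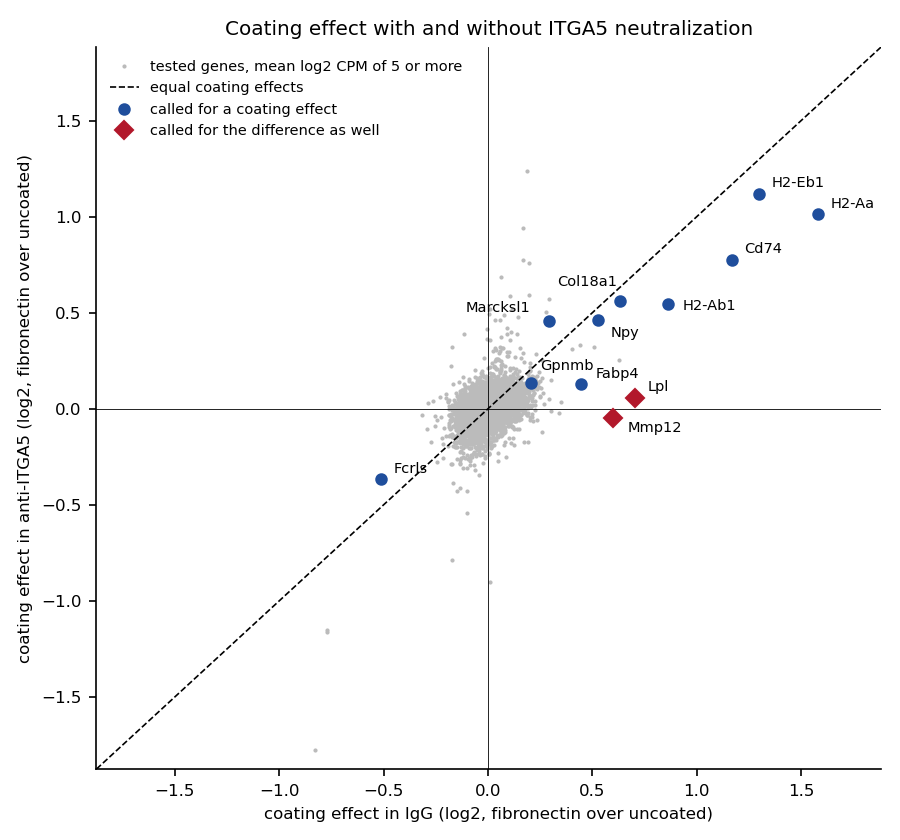
Coating effect in anti-ITGA5 (vertical) against coating effect in IgG (horizontal), both log2 of fibronectin over uncoated, for the 5747 tested genes with a mean log2 CPM of 5 or more in grey and for the called genes by name. Gm18194 is left out for scale. H2-Eb1 and Col18a1 lie near the dashed line of equal effects, and Lpl and Mmp12 lie near 0 on the vertical axis.

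Across genes, which are not independent replicates, the 2 coating effects share no library but share the normalization and the dispersion. Their Pearson r was 0.249 and Spearman rho 0.215 over 13611 genes, and 0.433 and 0.368 over the 5747 genes with a mean log2 CPM of 5 or more. Without anti-ITGA5 uncoated replicate 2 the values over the 5747 genes were 0.247 and 0.0845. The coating effects of most genes were small, with an SD of 0.0795 in IgG and 0.0933 in anti-ITGA5 among these abundant genes.

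The receptor genes themselves moved little with the coating. Itga5 was 46.1 ± 2.57 and 46.9 ± 1.88 FPKM in IgG and 51.0 ± 1.94 and 49.4 ± 2.49 FPKM in anti-ITGA5, without and with fibronectin (SD, n = 3). Its difference was -0.08 (95% interval -0.24 to 0.09). Itgb1, the β1 partner, lay between 256 and 284 FPKM in every library, with a difference of -0.04 (-0.17 to 0.08). Among 9 integrin genes whose products bind fibronectin or vitronectin, none was called, and the median difference was -0.0449, or -0.0742 without anti-ITGA5 fibronectin replicate 3. In IgG 1 of them was higher and 3 were lower at an unadjusted p of 0.05 or less, beside 3.51% and 2.3% of all genes. Itgb7 had coating effects of 0.44 in IgG and 0.33 in anti-ITGA5, and Itga4 of -0.18 and -0.08. Fn1, which encodes fibronectin, had coating effects of -0.06 and -0.12, and its difference was -0.05 (95% interval -0.63 to 0.53). Of 7 other integrin genes none was called, and Itgb2, the β2 chain, had coating effects of 0.19 and 0.09.

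Downstream of the receptor, 23 focal adhesion and integrin signalling genes had a median difference of 0.0195, with none at an unadjusted p of 0.05 or less in either direction, beside 1.26% higher and 1.64% lower over all genes. For 13 target genes of SRF and YAP, transcription factors that respond to actin and tension, the median was -0.0214, and 2 were lower at that level. The 26 immediate early genes had a median of -0.0666, with 1 higher and 3 lower, Dusp1 and Egr1 among them. The 15 mediators of PI3K, MAPK, HIF and NRF2 signalling had a median of 0.0371, with 1 higher and 1 lower. None of the members of these lists was called. Leaving out anti-ITGA5 fibronectin replicate 3 moved the median of the immediate early genes to -0.122, with 1 higher and 4 lower, that of the SRF and YAP target genes to -0.0361, with none lower, and that of the focal adhesion and integrin signalling genes to 0.0334, with 1 higher.

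Matrix proteases and inhibitors included the called Mmp12. Over 22 tested members the median difference was -0.0517, with 1 called, beside 0.022% of all genes, and with 1 higher and 2 lower at an unadjusted p of 0.05 or less, beside 1.26% and 1.64%. Without anti-ITGA5 fibronectin replicate 3 the median was -0.133, with 2 higher and 2 lower. Summed osteoclast markers did not overlap by coating in either antibody, and their part in these values was not tested. Mmp13, a collagenase whose gene lies on chromosome 9 with Mmp12, had coating effects of 0.80 in IgG and 0.22 in anti-ITGA5. Its level was 5.0, 4.84 and 6.04 FPKM in IgG without and 10.2, 7.51 and 10.2 FPKM with fibronectin, and 6.67, 5.81 and 7.59 against 6.80, 6.99 and 10.0 FPKM in anti-ITGA5. Only the IgG libraries separated by coating, and the difference was -0.58 (95% interval -1.05 to -0.11, adjusted p rounded to 1). Mmp9, a gelatinase, went the other way. It was 7.79 ± 0.456 and 8.94 ± 0.475 FPKM in IgG and 2.05 ± 0.516 and 3.58 ± 0.241 FPKM in anti-ITGA5 (SD, n = 3). Its coating effect was 0.20 in IgG and 0.77 in anti-ITGA5 (adjusted p = 0.0893), and the difference was 0.57 (95% interval 0.22 to 0.92, adjusted p rounded to 1). Mmp8 had effects of 0.51 and 0.32.

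Lipid uptake, storage and efflux genes included the called Lpl. Over 26 tested members the median coating effect was 0.0753 in IgG and 0.0253 in anti-ITGA5, with 2 called higher in IgG, Lpl and Fabp4, and none in anti-ITGA5, beside 0.0735% and 0.00735% of all genes. The median difference was -0.0293, with 8 of 26 members positive. Fabp5, a second fatty acid carrier, had coating effects of 0.21 and 0.16 and a difference of -0.06 (95% interval -0.24 to 0.13). Cholesterol and fatty acid synthesis genes, 28 tested, had a median difference of -0.0137, and none had an unadjusted p of 0.05 or less in any of the 3 contrasts. Without anti-ITGA5 fibronectin replicate 3 that median was 0.0452, with 22 of 28 positive and 1 higher at that level, and 3 were higher for the coating in anti-ITGA5. The median difference of the lipid uptake, storage and efflux genes was then -0.0508. Their median coating effect in anti-ITGA5 turned to -0.0135, with 10 of 26 positive, against 18 of 26 on all libraries.

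Interferon response genes, which cells switch on when they sense interferon, had a median difference of 0.525 over 40 tested members, 38 of them positive, with none called. Their median coating effect was 0.110 in IgG and 0.687 in anti-ITGA5, and 20 of 40 were higher in anti-ITGA5 at an unadjusted p of 0.05 or less, beside 2.89% of all genes. This pattern rested on 1 library. Ifit3 was 1.42, 0.954 and 7.80 FPKM in the anti-ITGA5 fibronectin libraries, against 0.719, 0.915 and 1.26 FPKM in anti-ITGA5 uncoated. Irf7, a transcription factor that amplifies the interferon response, was 3.15, 2.53 and 15.6 FPKM against 2.05, 2.54 and 2.80 FPKM. Replicate 3 of anti-ITGA5 on fibronectin was the highest of all 12 libraries in 34 of the 40 genes and above both other libraries of its group in 40, by a median of 2.46 times their mean. Without it the median coating effect in anti-ITGA5 was 0.0629, 0 genes were higher at that level, and the median difference was -0.0297. In the other anti-ITGA5 libraries the summed level of the 40 genes was 313 to 413 FPKM, against 537 to 611 FPKM in IgG and 685 FPKM in that library.

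**Figure D4:**
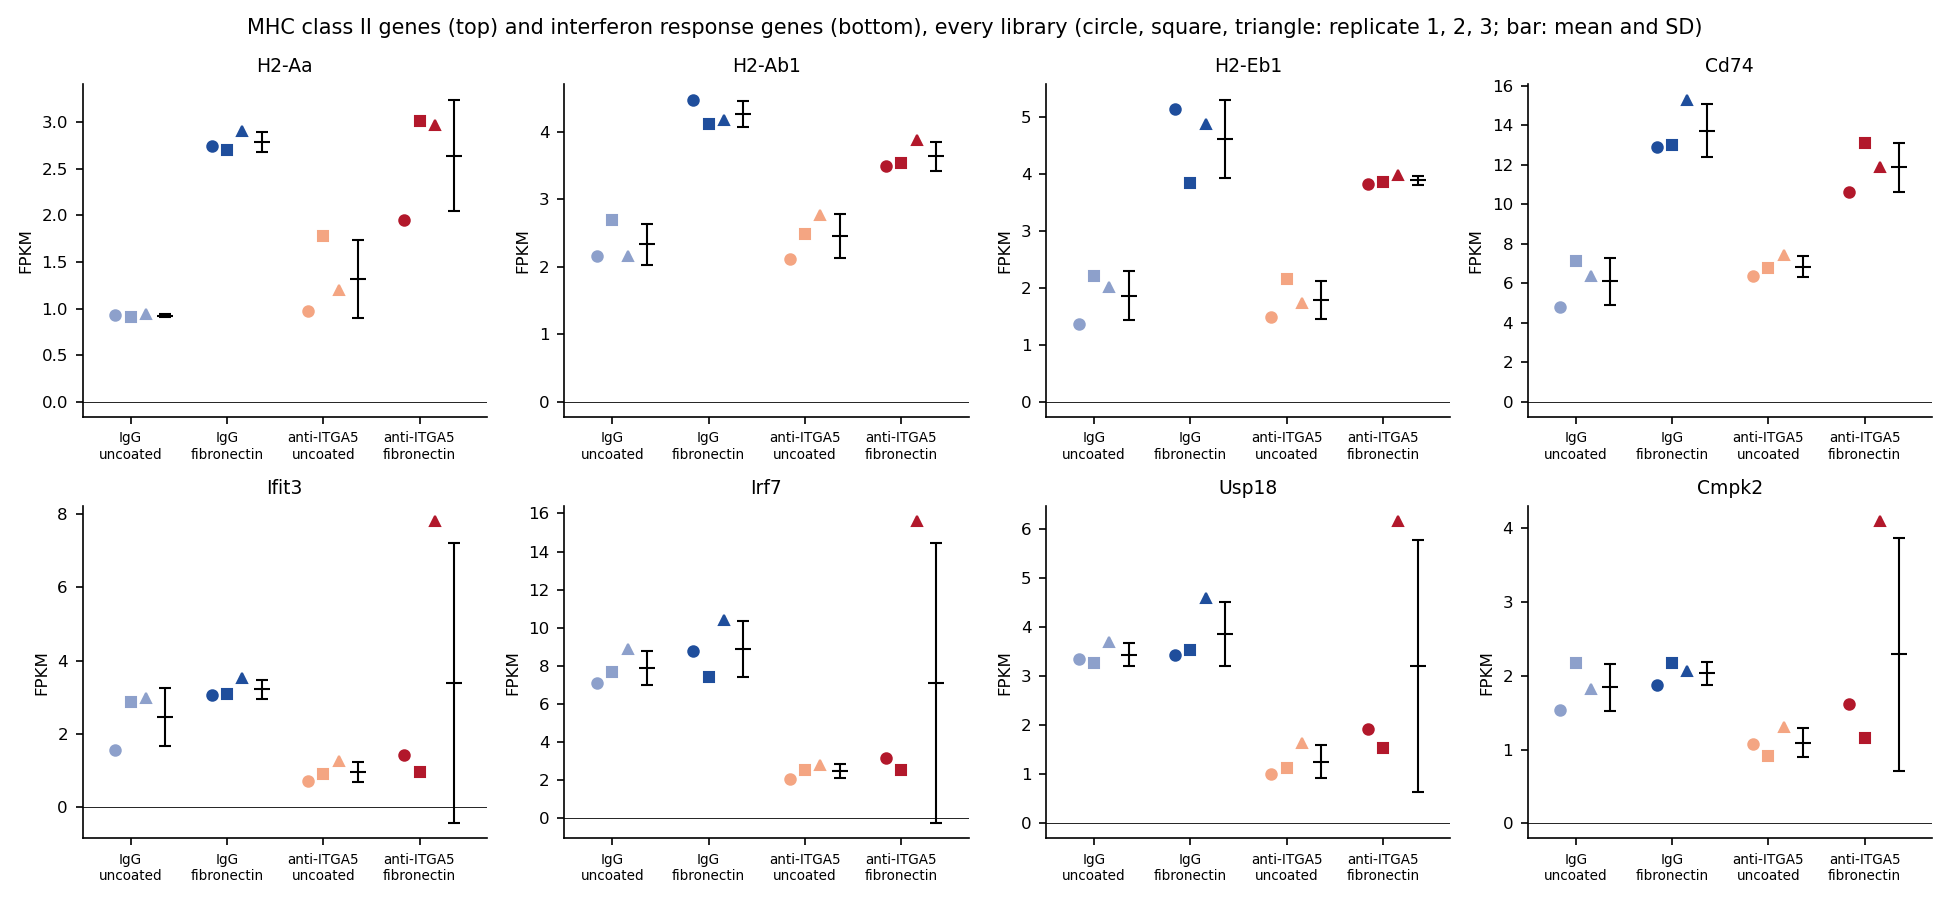
FPKM of 4 MHC class II genes (top) and 4 interferon response genes (bottom) in every library by group, with points for libraries and bars for the mean and SD of 3. Libraries of the 4 MHC class II genes did not overlap by coating in either antibody, and edgeR called the rise in IgG but not in anti-ITGA5. Ifit3, Irf7, Usp18 and Cmpk2 were high in anti-ITGA5 on fibronectin in replicate 3 alone, at 7.80 FPKM for Ifit3.

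Among inflammatory and stress groups, 39 NF-κB and endotoxin response genes had median coating effects of 0.0866 in IgG and 0.0875 in anti-ITGA5, with 11 higher at an unadjusted p of 0.05 or less in each, beside 3.51% and 2.89% of all genes, and a median difference of -0.0241. Clec4e, a receptor for mycobacterial glycolipids, had effects of 0.40 (adjusted p = 0.0658) and 0.31 (adjusted p = 0.388), and Cxcl2, a neutrophil chemoattractant, of 0.72 and 0.50. The 24 NRF2 antioxidant genes were positive in 24 of 24 in IgG and in 22 of 24 in anti-ITGA5, with medians of 0.112 and 0.0669 and 8 and 4 higher at that level, beside the same shares of all genes, and none was called. Nqo1, an NRF2 target, had effects of 0.45 and 0.17, and Srxn1, sulfiredoxin, of 0.18 and 0.05. The 14 CC chemokines and chemokine receptors had median effects of 0.0672 and 0.168, with 1 and 7 higher at that level. Without anti-ITGA5 fibronectin replicate 3 the latter count was 4, and without anti-ITGA5 uncoated replicates 2 and 3 it was 1. For none of these lists was a difference called.

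Angiogenic factors, 20 tested, had a median difference of -0.00195, with 1 higher and 2 lower at an unadjusted p of 0.05 or less, beside 1.26% and 1.64% of all genes. Vegfa was 41.1 ± 2.18 and 41.4 ± 1.99 FPKM in IgG and 27.6 ± 0.920 and 26.5 ± 1.34 FPKM in anti-ITGA5, without and with fibronectin (SD, n = 3). Its coating effects were 0.01 and -0.07, with a difference whose 95% interval ran from -0.25 to 0.08. Pdgfb had effects of 0.35 and 0.04, and Tgfb1 of -0.04 and 0.17, with differences of -0.31 (-0.61 to -0.02) and 0.20 (0.06 to 0.34). Matrix and matricellular genes, 25 tested, had a median difference of -0.0528, with none at that level. Without anti-ITGA5 fibronectin replicate 3 it was -0.115, with 4 of 25 positive and 2 lower, and the median of the angiogenic factors was 0.0182. Emilin2 and Ecm1, which encode matrix proteins, had differences of 0.02 (-0.15 to 0.19) and 0.10 (-0.16 to 0.35). Spp1, osteopontin, itself an integrin ligand, had coating effects of 0.24 and 0.17, and Lgals3, galectin-3, of 0.26 and 0.16.

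The median differences of the cell cycle, metabolic, stress and alternative activation lists lay near 0. The 30 S phase genes had a median difference of 0.000119 and the 32 G2 and M phase genes of 0.0308, with none at an unadjusted p of 0.05 or less. The glycolysis and hypoxia list, 31 tested, gave 0.00796, the unfolded protein and ATF4 list, 25 tested, 0.00239, and the heat shock list, 12 tested, 0.00665. Alternative activation genes, 18 tested, gave -0.0153. Of these, 2 were lower and 0 higher at an unadjusted p of 0.05 or less, beside 1.64% and 1.26% of all genes. For the coating in IgG, 1 of them was called higher, beside 0.0735% of all genes. Mrc1, the mannose receptor, had coating effects of -0.24 and -0.06. When anti-ITGA5 fibronectin replicate 3 was left out, the G2 and M phase median was 0.173, with 31 of 32 positive and none at that level. The S phase median was then 0.0542, the glycolysis and hypoxia median -0.00115 and the alternative activation median -0.0288, with 1 higher and 1 lower. The unfolded protein and ATF4 median was 0.000224, with 3 higher and 1 lower at that level, and the heat shock median 0.0228.

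The design fixed how small a difference could be seen. The median SE of the difference was 0.130 and the median half-width of its 95% interval 0.278. The whole interval lay within 0.5 of 0 for 8389 genes (61.6%) and within 1 of 0 for 10480 genes (77%). Among genes with a mean log2 CPM of 6 and over these shares were 97.7% and 99.5%, and under a mean log2 CPM of 0 they were 0.124% each. Counts were also simulated with the depth and spread of these libraries, with the changed genes drawn from well-counted genes only. The test recovered 130 of 200 such genes whose difference was set to 0.5, with 10 false calls. It recovered 190 of 200 whose difference was set to 1, with 11 false calls. These shares do not hold for genes of low level. A gene with no call can thus still differ, and for genes of low level by more than 1 on the log2 scale.

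**Figure D5:**
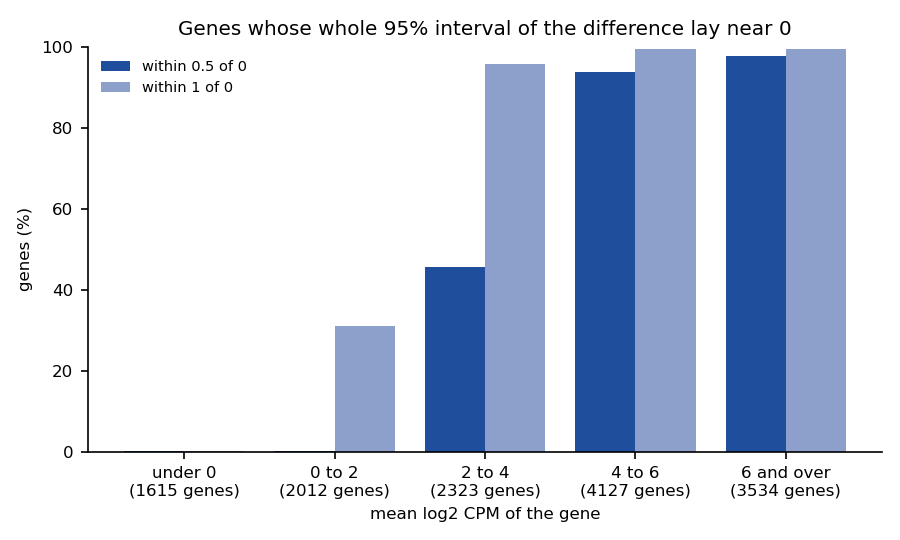
Share of genes, in percent, whose whole 95% interval of the difference lay within 0.5 or within 1 of 0 on the log2 scale, by mean log2 CPM of the gene. The share within 0.5 was 97.7% for genes with a mean log2 CPM of 6 and over and 0.124% for those under 0.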

How the data were processed

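RNA-seq of 12 libraries was used, 3 in each of 4 groups, taken from the sample labels. Libraries were made from oligo(dT)-enriched RNA and sequenced as 150 bp paired-end reads. The authors deposited raw counts for each gene, not normalized. FPKM for each gene were deposited in a separate table, scaled by the authors for length and depth. The submitters' processing notes name TopHat2 2.0.9, Cufflinks 2.1.1 and HTSeq 0.6.1, and the builds mm10 and GRCm38.p6. The strand used in counting is not given in the sources used here, so overlapping genes cannot be told apart by strand. No column was left out.

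Genes with at least 10 counts in 3 or more libraries were kept, libraries were scaled by TMM, and edgeR 4.0.16 in R 4.3.3 was fitted to the 4 group means of all libraries with the quasi-likelihood test. Benjamini-Hochberg adjustment ran over 13611 genes, and a gene was called at 0.05 or less. The SE was the size of the log2 value divided by the square root of F. Per-library levels are the deposited FPKM. DESeq2 1.42.0 and limma 3.58.1 served as alternatives, and the test was tested on simulated data. Totals of 12954342 to 22075432 counts limit precision as given with the intervals.

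Genes named were those called, the genes that filled the interaction list to 20 by unadjusted p with at least 10 counts in every library, up to 8 rises and 8 falls per coating effect, up to 4 members a list by the smallest p of either coating effect, and 6 genes known from the study or earlier results. Fn1 and the gastric genes were picked with their values in view, and further members of a list, such as H2-DMa, were given to complete it. The question, lists and rules were chosen with earlier results of these data known. Replicate numbers were not taken to pair libraries. Promoter sequences are from RefSeq, GRCm38.p6. H2-Aa, H2-Eb1 and Mmp12 were matched.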

Additional observations from a re-analysis of the deposited data

Results flagged for a closer look

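The coating effect in anti-ITGA5 differed from that in IgG by a test of the difference itself in 3 genes. Lpl had a difference of -0.65 on the log2 scale, Mmp12 also had a difference of -0.65, and Gm18194 had a difference of -6.15 (edgeR, adjusted p = 0.00157, 0.00767 and 0.0157). In Lpl and Mmp12 all 3 IgG libraries on fibronectin were above all 3 without, and the anti-ITGA5 libraries overlapped by coating.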

How the results depend on the processing

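The count of genes called for the difference of the coating effects, 3, became 65 with no filter on low counts, 1 with limma on log2(FPKM + 1) or on log2(FPKM + 0.1), 7 with limma and no filter, 1 with a log2 value of at least 1, and 6 without both divergent libraries, anti-ITGA5 uncoated replicates 2 and 3. That alternative was chosen after seeing the data and leaves 1 library in the group, which is assumed to vary like the other groups. Leaving out 1 library gave 1 (without IgG uncoated replicate 1) to 6 (without anti-ITGA5 uncoated replicate 3), and in the latter Pgc, Gkn1 and Gkn2 joined. The count for the coating in IgG, 11, became 44 with DESeq2, 74 with no filter, 7 after thinning, 6 in each limma fit, 3 at an adjusted p of 0.01, 3 at a log2 value of at least 1, 58 on its own 6 libraries, 39 without both divergent libraries, and 3 (without IgG uncoated replicate 1) to 42 (without anti-ITGA5 uncoated replicate 2). The count for the coating in anti-ITGA5, 2, became 16 with DESeq2, 391 with no filter, 1 with 10 counts in every library, 0 with both filtered limma fits, 4 with limma and no filter, 1 at a log2 value of at least 1, 0 on its own 6 libraries, and 0 to 14 (without anti-ITGA5 uncoated replicate 3) with 1 library left out. With the replicate number as a block the counts were 3, 37 and 16. Over 18 pairs of libraries of the same number, deviations from the group means correlated at -0.0528 to 0.536 (median 0.242, 14 over 0.1, against a median of -0.11 for other numbers), and 6 of 12 libraries correlated best with their own number. Since not every pair was over 0.1 and no label ties the numbers, the libraries were not taken as paired. With the block, Cd74, Col18a1 and Npy were called in anti-ITGA5 (adjusted p = 0.00536, 0.0101 and 0.0135). With no filter, edgeR also called the difference of Dusp6, Dusp1, Mmp9 and Mmp13 (adjusted p = 0.00208, 0.0339, 0.0372 and 0.0155). It then also called that of the interferon response genes Irf7, Usp18, Cmpk2 and Ifit3 (1.91e-19, 1.29e-05, 0.00661 and 0.000441). The cause of these changes was not tested.

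The median of the genes chosen in IgG lay between 0.3939 and 0.5631 with 1 library left out. The difference changed sign without both divergent libraries for Emilin2 (-0.01196), Npy (0.03209) and H2-Eb1 (0.07892). With 1 library left out it ranged from -0.03132 to 0.06853 for Emilin2, from -0.1336 to 0.04321 for Npy, from -0.163 to 0.04647 for Col18a1 and from -0.1061 to 1.827 for Ifit3, and the coating effect of Lpl in anti-ITGA5 from -0.001077 to 0.1038. The median difference of the interferon response genes ranged from -0.02972 to 0.8247. None of these values was called.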

Other observations

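Digestive tract genes had a pattern across libraries that follows no group. Pgc, which encodes pepsinogen C, had 118, 115 and 132 counts in IgG uncoated, 4, 0 and 156 in anti-ITGA5 uncoated, 130, 173 and 100 in IgG on fibronectin and 144, 135 and 96 in anti-ITGA5 on fibronectin. Gkn1 and Gkn2, the gastrokines, had 0 or 1 count in anti-ITGA5 uncoated replicates 1 and 2 and 39 to 111 counts in the other 10 libraries. Clps and Pla2g1b, which encode pancreatic colipase and phospholipase A2, had 11 to 72 counts in those 10 libraries and at most 1 in these replicates. The coating effects of Pgc, Gkn1 and Gkn2 were 1.23, 1.26 and 0.831 in anti-ITGA5. In IgG they were -0.0298, -0.163 and 0.276, and none of these effects was called on all libraries. The digestive tract genes were chosen after their values were seen.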
